A study of Mus musculus with 4 samples.

Results

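Ribosome-protected RNA fragments (footprints) were counted in the brain of 21-day-old mice over 4 lettered regions, a to d, of each annotated transcript. Described here are the 607 transcripts whose region d carried a raised count, out of 23175 transcripts with a count anywhere. They were chosen from counts summed over the 4 libraries. A member has at least 1000 counts in region b, at least 10 in region d, region d at 0.5% of region b or more, and no fewer counts in region d than in region c. Of 7382 transcripts with enough region b counts, 1398 had at least 10 region d counts and 730 of these reached 0.5%. A further 71 dropped out because region c exceeded region d, and 52 because they repeated the region b and region d counts of a transcript already kept.

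All mice were C57BL/6J at postnatal day 21, and the tissue was brain. In the neuron group a Snap25::eGFP-RpL10a transgene, and in the astrocyte group an Aldh1l1::eGFP-RpL10a transgene, placed GFP on a large-subunit ribosomal protein in the cells where that driver is active. Ribosomes were then caught with antibodies to GFP, so each library reports the cells in which the driver is active, with no sorting of cells named in the labels. Each cell type has 2 libraries, each from 2 pooled brains, and the p-values below measure the spread between such pools. Depth was 7292950 and 7968406 counts for astrocyte 1 and 2, and 7210269 and 12833187 for neuron 1 and 2.

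As background, a translating ribosome shields a short stretch of messenger RNA from nuclease, and most such footprints lie on the main reading frame of a message. Footprints elsewhere on a message are studied because ribosomes can start at upstream start codons, pass a stop codon, shift frame or start again further down. Transcripts of a gene also share exons, so that a stretch that lies outside the main frame of 1 model can lie inside that of another. The sources used here do not define the letters a to d, and region b, which held most counts, serves as the reference throughout. They also pair no transcript ID with a gene, so the members are given by their Ensembl mouse IDs, with no gene names, genomic positions or sequences, and the labelled cell types were not checked against marker genes.

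Region d levels, given as the region d count in percent of the region b count, spanned a wide range. The members had a median of 1.08%, quartiles of 0.724% and 2.53%, and a highest value of 182%. Of the 607 members, 283 lay between 0.5% and 1%, 136 between 1% and 2%, 103 between 2% and 5%, 40 between 5% and 10% and 45 at 10% or above. These values chose the members and are a description only. The members just inside the limit were ENSMUST00000108915, with 10 region d and 2000 region b counts, ENSMUST00000001455, with 22 and 4391, and ENSMUST00000056882, with 20 and 3986. Just outside lay ENSMUST00000000759, with 12 region d and 2401 region b counts, ENSMUST00000150806, with 11 and 2220, and ENSMUST00000113597, with 33 and 6664. The limit therefore falls in a continuous run of values and marks no gap.

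**Figure D1:**
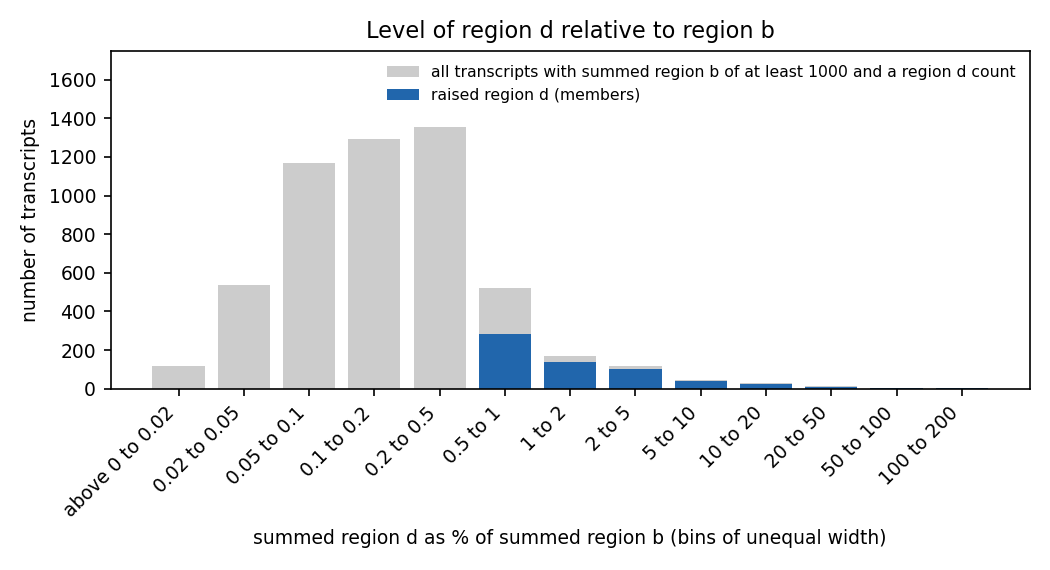
Number of transcripts (vertical axis) by summed region d count as a percentage of summed region b count (horizontal axis, bins of unequal width), for every transcript with a region b count of at least 1000 and a region d count (grey) and for the members (blue). Members begin at 0.5%, where 283 of the 522 transcripts between 0.5% and 1% meet the other conditions, and 8 members lie at 50% or above.

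Most members had few region d counts. The median was 27 counts over the 4 libraries, with quartiles of 15 and 67.5, while 111 members had at least 100 and 8 had at least 1000. The 10 members with the most region d counts held 29% of all 60373 region d counts of the members, and the top 50 held 60.3%. The members together held 37.8% and 37.1% of all region d counts of astrocyte 1 and 2 and 38.8% and 36.6% of those of neuron 1 and 2, against 6.58% to 7.32% of the counts of all regions. The rule chose members for high region d, so the larger share follows from the choice. Counts that recur across members enter these sums repeatedly, and the shares are a description only.

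At the top of the range, region d carried about as many footprints as region b or more. ENSMUST00000068792 had 446 and 407 region d counts in astrocyte 1 and 2, then 655 and 396 in neuron 1 and 2, beside 230, 272, 259 and 286 region b counts. In the same order its level was 194%, 150%, 253% and 138%. The neuron libraries were the highest and the lowest of the 4, so the groups overlapped.

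ENSMUST00000162525 had the most region d counts of all members, 517 and 566 in the astrocyte and 601 and 1205 in the neuron libraries. Its level was 101.2% and 100% in astrocyte and 109% in both neuron libraries, a steady value near 1 count in region d per count in region b. ENSMUST00000169034 stood at 96.5% and 81.5% in astrocyte 1 and 2 and for the neuron pair at 84.8% and 86.4%, from 2678 region d counts. For both, all 4 libraries lay close together, and each carried a region d level above 80% wherever it was measured.

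Over all libraries, the other 9 of the 12 members with the highest levels lay between 39.8% and 63.6%. ENSMUST00000117566 measured 61.4% and 70.1% in the astrocyte pair, against 52.7% and 62.3% in the neuron pair. ENSMUST00000184445 measured 56% and 54.4% in the astrocyte pair, against 75.7% and 68.9% in the neuron pair. ENSMUST00000117710 measured 64.9% and 58.7% in the astrocyte pair, against 59.4% and 62.5% in the neuron pair. Of these 3, the second alone had both neuron libraries above both astrocyte libraries.

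ENSMUST00000160342 gave 60.7%, 54.9%, 56.7% and 63.2% in astrocyte 1 and 2 and neuron 1 and 2. In the same order, ENSMUST00000112632 gave 53.4%, 53.3%, 49.3% and 60.3%, and ENSMUST00000110843 gave 50.2%, 52.6%, 47.2% and 43.2%. The first and second overlapped between the cell types, and in the third both astrocyte libraries were higher. ENSMUST00000106369 had 68 and 95 region d counts in astrocyte 1 and 2, then 129 and 156 in neuron 1 and 2, and its level was 32.5% and 35.2% against 53.3% and 54.4%. Among the 12 members with the highest levels it had the largest log2 change between the cell types, while in percentage points the means of ENSMUST00000068792 lay further apart (172% and 196%, against 33.9% and 53.8%). ENSMUST00000113025 measured 37.5% and 44% in the astrocyte pair against 41.3% and 39.4% in the neuron pair, and ENSMUST00000041500 measured 43.3% and 39.6% against 38.2% and 39.2%.

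**Figure D2:**
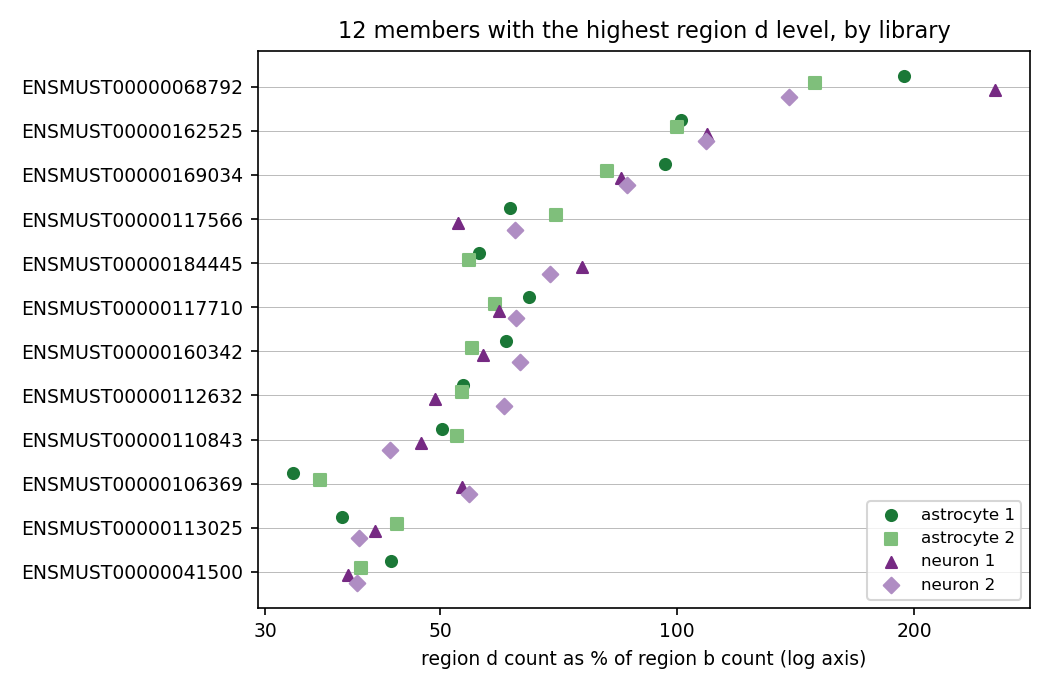
Region d count as a percentage of the region b count (horizontal log axis) in each of the 4 libraries for the 12 members with the highest summed level (vertical axis). Each point is 1 library. The level of ENSMUST00000106369 is 32.5% and 35.2% in the astrocyte and 53.3% and 54.4% in the neuron libraries, and ENSMUST00000068792 spreads from 138% to 253% within the neuron libraries.

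How the level was made up differed between members of like height. Region c, the region lettered before d, was empty in 189 of the 607 members, and its median was 10% of region d. The rule caps region c at region d, so this is a description. Among the 111 members with at least 100 region d counts, 50 had a region c under 10% of region d and 7 had one of at least 50%. ENSMUST00000117710 had 2399 region d counts and none in region c, which allows up to 3, and 1 in region a. ENSMUST00000113025 likewise had no region c count beside 1649 in region d, but 920 in region a. ENSMUST00000068792 had 1 region c count and 9 region a counts beside 1904 in region d. By contrast ENSMUST00000169034 had 787 counts in region c and ENSMUST00000160342 had 471 in region c, beside 1248 in region d and none in region a. High region d levels thus occurred with region c empty and with region c well filled.

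Many members carry the same region d counts, and a number of members is not a number of genes. The 607 members had 501 distinct sets of region d counts, and 173 shared all 4 library counts with another member. Among the 381 members with at least 20 region d counts, 95 did so, in 37 sets. The largest set had 8 members with 94, 98, 59 and 91 region d counts and 36 region c counts each, while their region b counts ran from 3333 to 3508 and their levels from 9.75% to 10.3%. Another set of 6 members had 198, 214, 185 and 145 region d counts each, region b counts of 57319 to 61707 and levels of 1.2% to 1.29%. In a set of 4 members with 24, 34, 27 and 38 region d counts the region b counts ran from 1261 to 4275, so that one and the same region d count gave levels from 2.88% to 9.75%. Within such a set the levels differ through region b alone.

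For some members the counts of regions b, c and d together nearly equalled region b of another transcript. This was looked for in the 169 members with at least 60 region d counts, allowing a difference, added up over the libraries, of 5% of the region d count. A counterpart was found for 12 of them, with 5 distinct sets of region d counts, and for 11 of the 12 the counterpart had fewer than 10 region d counts of its own. ENSMUST00000117710 had 1136, 1190, 1345 and 2629 counts in regions b to d together, and ENSMUST00000047510 had 1142, 1195, 1372 and 2628 in region b and 1 in region d. ENSMUST00000117407, of the set of 8, had 872, 979, 877 and 1154 counts in regions b to d, and ENSMUST00000121641 had 877, 980, 876 and 1157 in region b and none in region d. In these pairs the counts that one transcript lists in region d are matched in number by counts that the other lists in region b. ENSMUST00000162525, with the most region d counts, was among the 12. Its regions b to d held 1047, 1160, 1163 and 2364 counts, against 1092, 1158, 1221 and 2394 in region b of ENSMUST00000174805. Of 39 other transcripts with as many region d counts and at least 1000 in region b, 0 had such a counterpart. Their region d is small beside region b, so the same rule is a stricter one there. The allowed difference grows with the region d count and was widest for ENSMUST00000162525, which differed by 135 counts, or 4.67% of its region d. Whether the matched counts come from the same fragments was not tested, and neither was how often unrelated transcripts match this closely.

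Counts of region d equal in all 4 libraries to region a, b or c of another transcript occurred in 28 of the 381 members with at least 20 region d counts. None of these 28 had more than 47 region d counts, and how often unrelated regions match by coincidence was not tested. ENSMUST00000034965, for example, had 14, 8, 8 and 17 region d counts, and these were also the region b counts of ENSMUST00000109329.

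The level of most well-counted members stayed within 2 times from library to library. Over the 111 members with at least 100 region d counts, the highest library was a median of 1.59 times the lowest, 50 members stayed under 1.5 times, 22 exceeded 2 times and the largest ratio was 3.51. In 105 of the 111 the level was at least 0.5% in every library. Spearman rho between the levels of any pair of libraries lay between 0.921 and 0.959 over these 111 members, which share libraries and in part fragments and were chosen for their summed level. Over all 607 members, 316 reached 0.5% in every library and 83 had no region d count in at least 1 library. Only 1 member had none in both libraries of a cell type, ENSMUST00000059562, with 0 in both astrocyte libraries and 5 and 6 in neuron 1 and 2. An absent count still allows up to 3 counts in a library.

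**Figure D3:**
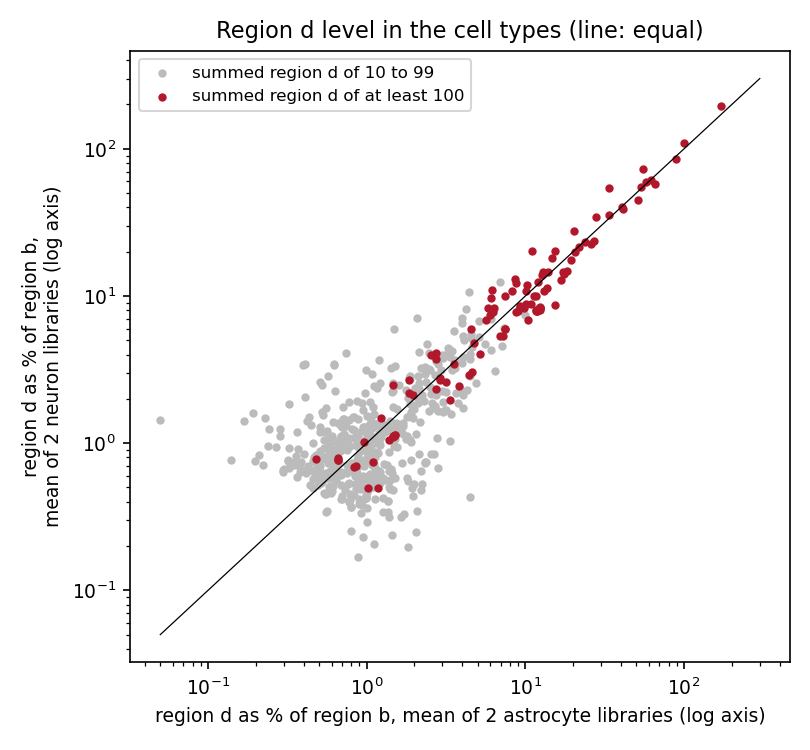
Region d as a percentage of region b, mean of the 2 neuron libraries (vertical log axis) against mean of the 2 astrocyte libraries (horizontal log axis), for the 607 members. Red points are the 111 members with at least 100 region d counts, grey points the others, the line marks equal levels, and the 1 member with no astrocyte count is drawn at 0.05%. The highest red point, ENSMUST00000068792, is at 172% in astrocyte and 196% in neuron samples, and the grey points scatter more widely around the line than the red.

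Summed over the members, region d stood at 2.95% and 2.84% of region b in astrocyte 1 and 2 and at 2.91% and 2.71% in neuron 1 and 2. The means were 2.89% ± 0.078 for astrocytes and 2.81% ± 0.142 for neurons (SD, n = 2 each), with overlap between the groups. As a share of regions b and d together, the 95% Wilson intervals were 2.81% to 2.91% and 2.71% to 2.81% for the astrocyte libraries. For the neuron libraries they were 2.78% to 2.88% and 2.60% to 2.67%. These intervals cover counting error only. They take counts that recur across members as independent, so they may be too narrow even for that. In the 6723 transcripts with as many region b counts that do not meet the rule, region d stood at 0.111% to 0.129% of region b.

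The first test asked whether the level of region d relative to region b differed between neurons and astrocytes. The rule used sums over all libraries and not this difference. No member passed, among all 607 tested, with a smallest edgeR adjusted p of 0.453. In the whole fit of 2150 transcripts 0 passed as well, so the background is 0%. At an unadjusted p under 0.05 there were 33 members, 17 with a higher level in neuron and 16 with a higher level in astrocyte samples. This is 5.44% of the members, near the 6.28% of all transcripts tested, and DESeq2 also called 0 members and gave 11 at that unadjusted limit, 1.81% against 2.28% of all transcripts. The median log2 change was -0.02 over the members and -0.04 over all transcripts tested. The levels of the cell types did not overlap in 246 members, 122 higher in astrocyte and 124 higher in neuron samples, or 40.5% against a background of 37.2%.

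A missed threshold does not show that the levels were alike. For the 111 members with at least 100 region d counts the median SE of the log2 change was 0.378, and in 35 of them the 95% interval of the change lay wholly within 2-fold in either direction, while in 76 it reached further. The 378 members with fewer than 40 region d counts had a median SE of 0.848. For the 12 members with the highest levels the log2 changes ran from -0.19 to 0.67. ENSMUST00000068792 had a log2 change of 0.14 with a 95% interval of -0.68 to 0.96, a direction that turned to -0.30 without neuron 1 and to -0.05 without astrocyte 2. ENSMUST00000106369 was at 0.67 with an interval of -0.07 to 1.41 (edgeR adjusted p = 0.76).

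The smallest p of any member belonged to ENSMUST00000035812, with 7 and 9 region d counts in the astrocyte and 1 and 2 in the neuron libraries and a log2 change of -3.22 (SE 0.805, edgeR adjusted p = 0.453). When transcripts with fewer than 40 region d counts were left out, 1 of 229 members passed, or 0.437%, beside 6 of 543 transcripts in the same fit, or 1.10%. This was ENSMUST00000027684, with 30 and 29 region d counts in the astrocyte libraries against 9 and 18 in the neuron libraries, beside 1092, 1249, 1173 and 1966 region b counts. Its level was 2.53% ± 0.301 for astrocytes and 0.841% ± 0.105 for neurons (SD, n = 2 each), a log2 change of -1.56 (SE 0.465, edgeR adjusted p = 0.743 with all transcripts and 0.0448 under the stricter filter).

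Region b, which does not enter region d, shows in which cell type a member had more footprints relative to the library. In these bulk captures, fewer cells of a type, less RNA per cell and fewer ribosomes per RNA cannot be told apart. Of the 607 members, 136 passed, 66 with more region b footprints in neuron and 70 with more in astrocyte samples, under edgeR's quasi-likelihood test with adjustment over 20038 transcripts. That is 10.9% and 11.5% of the members. The background is 3.21% and 11% of all transcripts tested, 14.2% in either direction, and 6.19% and 11.4% of the 7382 transcripts that also have at least 1000 region b counts. A closer background is the 1398 transcripts, members included, that also have at least 10 region d counts. Of these, 160 passed toward neuron and 176 toward astrocyte samples, and beside them the members' shares were not raised in either direction. The members' calls held 61 distinct sets of region b counts toward neuron and 63 toward astrocyte samples. Among the called members, changes toward astrocytes reached further, with 43 of 70 at least 2-fold and 11 at least 4-fold, against 14 and 3 of 66 toward neurons. Sizes of change were not counted over all called transcripts, so this is not shown to be particular to the members. The median log2 change was 0.16 over the members, 0.13 over those 7382 transcripts and 0.03 over all tested.

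**Figure D4:**
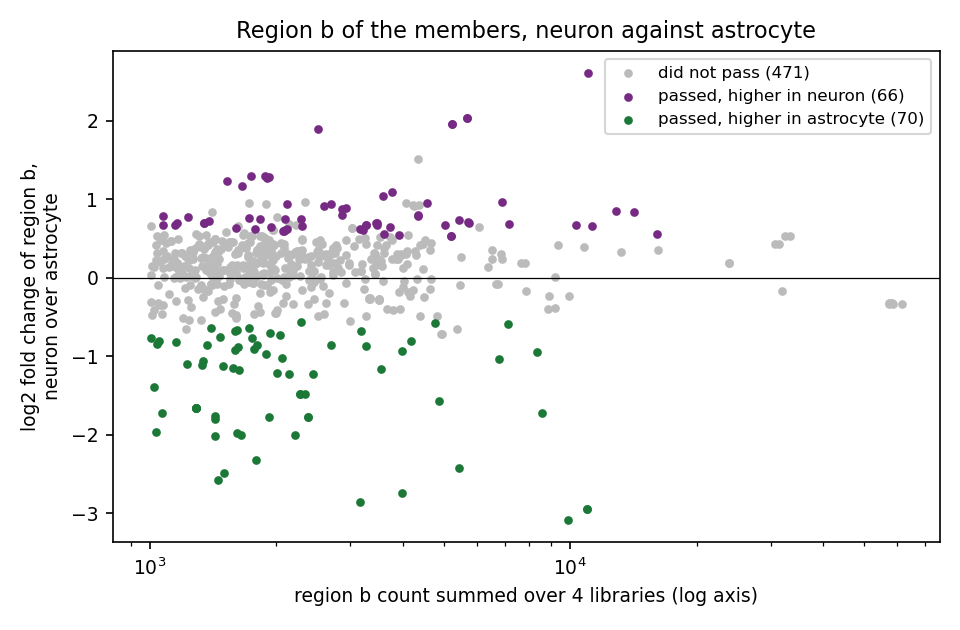
Log2 fold change of region b, neuron over astrocyte samples (vertical axis), against the region b count summed over the 4 libraries (horizontal log axis), 1 point per member. The 66 purple members passed toward neuron and the 70 green members toward astrocyte samples, and the green points reach -3.09 while the purple points reach 2.61.

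ENSMUST00000036387 had 3915 and 4642 region b counts in the astrocyte libraries against 671 and 663 in the neuron libraries. It measured 560 ± 32.3 CPM (counts scaled to a common library total) in astrocyte and 72.4 ± 29.3 CPM in neuron samples (SD, n = 2 each), a log2 change of -3.09 (SE 0.278, edgeR adjusted p = 0.000316). Its region d counts were 25, 29, 7 and 5, a level of 0.632% ± 0.00979 for astrocytes and 0.899% ± 0.204 for neurons (SD, n = 2 each). ENSMUST00000036070 had 4323 and 5005 region b counts in astrocyte against 779 and 844 in neuron libraries, a log2 change of -2.94 (SE 0.251, edgeR adjusted p = 0.000306). Its region d counts were 54, 56, 5 and 3, a level of 1.18% ± 0.0921 for astrocytes and 0.499% ± 0.203 for neurons (SD, n = 2 each). For both transcripts all astrocyte libraries lay far above all neuron libraries in regions b and d alike.

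Toward neurons, ENSMUST00000051087 had 497 and 514 region b counts in the astrocyte and 1774 and 8241 in the neuron libraries, a log2 change of 2.61 (SE 0.376, edgeR adjusted p = 0.00248). Its region d counts were 3, 7, 20 and 52. ENSMUST00000172378 had 379 and 405 region b counts in the astrocyte and 1330 and 3568 in the neuron libraries, a log2 change of 2.04 (SE 0.205, edgeR adjusted p = 0.000445), with region d counts of 1, 5, 5 and 31. The neuron libraries stood apart from each other here, and the change of ENSMUST00000051087 was 3.12 without neuron 1 and 1.78 without neuron 2. In CPM, neuron 2 was over 2-fold above neuron 1 in 7 of the 66 members called toward neuron, while the astrocyte libraries were that far apart in 0 of the 66 and 0 of the 70. Neuron 1 was that far above neuron 2 in 1 of the 70.

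For members called in region b, region d CPM was compared with the direction of region b. Mean region d CPM was higher in neuron samples in 54 of the 66 members called toward neuron, and higher in astrocyte samples in 59 of the 70 called toward astrocyte samples. In 37 of the 66 and in 40 of the 70 both libraries of the cell type with more region b also had more region d CPM than either library of the other. That is 56.1% and 57.1% of these members, beside a background of 45.6% and 59.7% of the 160 and 176 transcripts called toward neuron and toward astrocyte samples that have the same minimum counts in regions b and d. This background includes the members, and in the 94 and 106 transcripts that are not members it is 38.3% and 61.3%. Mean region d CPM followed region b in 81.8% and 84.3% of the members. It did so in 85% and 89.8% of the 160 and 176 transcripts, and in 87.2% and 93.4% of those that are not members. These shares lay above the background in 1 of the 4 comparisons, and no test was made of them. Of the 12 members with the highest levels, 2 passed toward astrocyte and 1 toward neuron samples in region b, and the region d level of none of these 3 passed the test of the level.

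The number of calls in region b rested on single libraries. Without neuron 1 or neuron 2 there were 359 and 358 called members, and without astrocyte 1 or astrocyte 2 there were 67 and 59. These are 59.1%, 59%, 11% and 9.72% of the members, and the share of all 20038 transcripts called moved in the same order, at 42.2%, 29.5%, 8.92% and 7.89%. In these fits the single remaining library takes its spread from the other cell type's pair. With library totals in place of TMM factors, which moved the median change of all transcripts from 0.03 to 0.16, 114 members passed toward neuron and 62 toward astrocyte samples, or 18.8% and 10.2%. Of all transcripts 6.52% and 9.28% then passed in those directions.

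Region a counts did not enter the rule, but their ratio to region b shares region b with it, and a choice by region d over region b favours low region b counts. As counts, region a had a median of 169 in the members (quartiles 41.5 and 391.5) and 99 in the 6723 transcripts with as many region b counts that do not meet the rule (quartiles 34 and 243). As a ratio, its median was 7.81% of region b in the members, with quartiles of 2.05% and 15.5%, against 4.05% in the others, with quartiles of 1.52% and 8.77%. Region a exceeded 10% of region b in 39.7% of the members and in 21.5% of the others, while it was empty in 4.94% and 5.22%. Median region b counts were 1961 in the members and 2111 in the others. In the libraries, summed region a was at 12.4% and 13% of region b in the astrocyte and 10.6% in both neuron libraries for the members, against 6.76%, 7.2%, 5.99% and 5.69% for the others. These transcripts share libraries and in part fragments, and the values are given as a description, with no test. Region d held more counts than region a in 138 members.

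Of the members, 551 had enough region a counts for a test of its ratio to region b, and 3 changed, all with a higher ratio in astrocyte samples. The 3 are 0.544% of those tested. The background is 0.449% of 14036 transcripts, with 0.442% higher in astrocyte and 0.00712% higher in neuron samples. Among the 6540 that reach 1000 region b counts it is 0.841%, with 0.826% and 0.0153% in those directions, so the members' share lies near the background. At an unadjusted p under 0.05 there were 78 members, 14.2% against 9.92% of all 14036 transcripts. Of the 78, 64 were higher in astrocyte samples. The unadjusted share was not counted among the 6540 transcripts, nor by direction over all transcripts, so no excess of the members is shown. Adjusted calls over all transcripts leaned the same way, with 62 of 63 higher in astrocyte samples.

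ENSMUST00000103065 had 102 and 98 region a counts in astrocyte 1 and 2, then 24 and 7 in neuron 1 and 2, beside 393, 558, 308 and 725 in region b. Its region a stood at 21.8% ± 5.93 of region b for astrocytes and 4.38% ± 4.83 for neurons (SD, n = 2 each), a log2 change of -2.72 (SE 0.417, edgeR adjusted p = 0.000156). The neuron libraries differed from each other, and the change was -4.43 without neuron 1 and -1.45 without neuron 2, where it no longer passed (edgeR adjusted p = 0.399). ENSMUST00000037324 had 90, 96, 32 and 52 region a counts, or 29.2% ± 0.619 of region b for astrocytes and 10.0% ± 1.33 for neurons (SD, n = 2 each). Its log2 change was -1.57 (SE 0.317, edgeR adjusted p = 0.00596). The third had a log2 change of -1.10 (edgeR adjusted p = 0.0291). ENSMUST00000037324 and the third passed in 5 of 11 alternatives each, and in none that left out a library, and ENSMUST00000103065 passed in 9.

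These 3 members had 84 region d counts in all. ENSMUST00000103065 and ENSMUST00000037324 had few, 10 and 12, while the third, ENSMUST00000008878, had 62, against a median of 27 over the members. The median log2 change of the region a ratio was -0.21 over the members tested and -0.21 over all transcripts. When the total of each region took the place of the library total, the members' median became 0.03 and 1 member passed. The median over all transcripts became 0.03 as well, and 11 of the 14036 passed, 3 toward neuron and 8 toward astrocyte samples. With the library total it was 63, of which 1 was toward neuron and 62 toward astrocyte samples. The number of calls and their lean toward astrocytes thus depended on this choice of total. DESeq2 called 0 members and 1 of all 14036 transcripts, and at an unadjusted p under 0.05 it gave 27 members, 4.90% against 3.32% of all transcripts.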

How the data were processed

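Each of the 4 deposited files lists whole-number counts of footprints by transcript and region letter, unscaled as far as the values show. A region that a file does not list was read as 0. Fragments were digested with RNase I on the beads, per the labels' protocols. The tools named, with no role or order, are STAR 2.3.1z8, Bowtie2 2.2.2, FastQC 0.11.2, edgeR, bedtools and Trimmomatic 0.32, per the submitters' processing notes. Not given in the sources used here are the genome build, the annotation, the strand setting and how a fragment shared by transcripts was counted.

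Members and lists were chosen with earlier results of these data known. Ratios of region d or a to region b were tested with edgeR 4.0.16 in R 4.3.3 (quasi-likelihood F test). Every transcript with at least 10 counts in both regions was fitted, with a term per library, one for region and one for how the region effect differs by cell type, and the same library total for both regions. Region b was tested with TMM factors and cell type only. Benjamini-Hochberg adjustment ran over all transcripts of a fit, with a threshold of 0.05. Positive log2 changes are higher in neuron samples, and the SE was taken as the ratio of the change to the root of F. DESeq2 1.42.0 was an alternative. The edgeR fits of the ratios and of region b were also run on simulated counts, with the same spread for all transcripts of a fit. DESeq2 was not run on them, and the outcome is not reported here.

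The rule for named members took the 12 with the highest level, the 12 with the most region d counts, 3 on each side of the limit, all that passed a ratio test, and the 8 largest region b changes per direction. Without gene names only 2 IDs per direction are printed, 1 of any with equal region b counts, and the members with the most region d counts are given mainly by totals. ENSMUST00000059562, ENSMUST00000035812, ENSMUST00000027684, ENSMUST00000117407, ENSMUST00000034965 and the counterpart transcripts were chosen after their values were seen. Lists of selenoprotein, frameshift, readthrough, histone and other genes and of cell type markers need gene names, which 0 transcripts had, and were not used. The matching of region counts between transcripts was chosen after seeing the data. Library totals of 7210269 to 12833187 counts leave most members with few region d counts. The Wilson intervals and the limits for absent counts cover counting error only. Intervals of log2 changes rest on the SE of the edgeR fits, which also takes in the spread between libraries.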

Additional observations from a re-analysis of the deposited data

How the results depend on the processing

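The number of members was 324 and 188 with region d at 1% or 2% of region b or more, 229 with at least 40 region d counts, and stayed within 1.5 times without the condition on region c (673) or with repeats kept (659). The summed level of region d fell to 2.13%, 2.12%, 2.08% and 1.94% in astrocyte 1 and 2 and neuron 1 and 2 without the 10 members with the most region d counts, and the median member stood at 1.15%, 1.26%, 1.27% and 1.02%.

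In the region d test the count of called members stayed at 0 in 10 of 11 alternatives and was 1 of 229 with at least 40 counts, where 6 of 543 transcripts were called. The median change of the members turned to 0.0090 with DESeq2 and ranged from -0.093 to 0.014 with 1 library left out, above 0 without neuron 2. The change of ENSMUST00000068792 ranged from -0.30 to 0.57 in the same way, below 0 without neuron 1 (-0.30) and without astrocyte 2 (-0.05). In region b, library totals alone gave 114 members toward neuron samples. With 1 library left out the called members ranged from 59 to 359, those toward neuron from 15 to 239 and those toward astrocyte samples from 44 to 152. In both directions the share of all transcripts called also fell without an astrocyte library and rose without a neuron library. These ranges are therefore not particular to the members. In region a, 5 members were called with edgeR's filterByExpr, 1.11% of those tested against 1.08% of all transcripts. DESeq2 called 0 members, and 1 of all 14036 transcripts. With 1 library left out the median change of the members ranged from -0.26 to -0.20. Totals taken per region gave 1 member, 0.181% against 0.0784% of all transcripts, and turned the members' median to 0.026. The cause was not tested.

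Replicate numbers 1 and 2 occur in both groups, and no label says that they pair samples. Same-numbered libraries deviated with r = -0.058 in region b (20038 transcripts) and -0.044 in the members' region d level. With the replicate block 0, 137 and 4 members were called for region d, region b and region a. These are 0%, 22.6% and 0.726% of the members tested, against 0.0465%, 15.8% and 0.413% of all transcripts tested. Region d counts, with a median of 27 over 4 libraries, limit what could be detected.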
